A study of Danio rerio with 6 samples.

Results

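The genes described here encode 6 proteins that build or organise the cell cortex and the cytoskeleton: the keratin krt97, the non-muscle myosin II heavy chains myh9b and myh10, the polarity protein scrib, the cortical scaffold slc9a3r1 and the kinesin kifc1. They were chosen by name for that role, with earlier results of these data known. All 6 are among the 99 genes of the table and among the 67 genes tested, those whose mean reached 1 FPKM. FPKM counts sequenced fragments relative to transcript length in kilobases and to the number of fragments mapped in the library. Messenger RNA was sequenced from whole zebrafish embryos of strain AB at 4.5 hours post fertilization, the stage called 30% epiboly. Wild-type embryos (3 libraries) were compared with MZdgcr8 embryos (3 libraries), which lack the maternal as well as the zygotic supply of Dgcr8, and each library came from a pool of 50 embryos. How the mutation was made, and whether pools with the same replicate number shared parents, is not stated in the sources used here.

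During epiboly the blastoderm thins and spreads over the yolk under a covering epithelium, the enveloping layer. Keratins assemble into the intermediate filaments that make epithelial cells resist stretch. Non-muscle myosin II pulls on actin filaments and supplies contractile force, at the cell cortex and in the ring that draws the enveloping layer over the yolk cell. Scribble marks the basolateral side of epithelial cells, and in zebrafish it also takes part in convergent extension and in the migration of facial motor neurons. Dgcr8 works with Drosha in the first cut of canonical microRNA precursors, and in zebrafish the microRNAs made at the onset of zygotic transcription speed the removal of maternal messengers.

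The table holds part of the genes, so its count totals of 358811 to 576050 per library are not depths. Relative library depth ran from 0.797 to 1.14, and the counts of the 6 genes ran from 3598 to 33809 per library. Replicate 3 stood apart in both genotypes: over the tested genes it correlated with replicates 1 and 2 at 0.801 to 0.901, while the other replicates of a genotype correlated with each other at 0.996 (Pearson's r on log2(FPKM + 1)). For that reason values are given for every library, and the edgeR comparison of each gene is given with replicate 3 and without it. Of 43 marker genes listed for 5 cell groups of the embryo, 1 is in the table, the yolk syncytial layer gene slc40a1, and its level lay between 0.0813 and 0.371 FPKM. The labelled tissue could therefore not be checked against its markers, and dgcr8 itself was not analysed here. In whole embryos, fewer cells of a type and less messenger per cell cannot be told apart.

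The 6 genes fell into an abundant and a moderate level of expression. The keratin krt97 and the kinesin kifc1 ranked 2 and 4 of the 99 genes by mean FPKM, and the other members ranked between 21 and 26. In wild type the means were 197 FPKM for krt97, 124 FPKM for kifc1, 27.4 FPKM for slc9a3r1, 26.4 FPKM for scrib, 25.3 FPKM for myh10 and 24.9 FPKM for myh9b. Levels were not tested between genes, and the order of the last 4 changed between libraries. In wild-type replicates 1 and 2 scrib was the highest of them (28.0 and 29.3 FPKM) and myh9b the lowest (17.7 and 19.9 FPKM). In wild-type replicate 3 myh9b was the highest (37.1 FPKM) and scrib the lowest (21.9 FPKM). In MZdgcr8 the means were 130 ± 174 FPKM (SD, n = 3) for krt97 and 107 ± 21.6 FPKM for kifc1, and the other members lay between 20.5 ± 1.88 FPKM for myh9b and 27.9 ± 4.17 FPKM for scrib. Nor was krt97 above kifc1 in every library, because in MZdgcr8 replicates 1 and 2 krt97 lay below kifc1 and close to scrib.

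**Figure D1:**
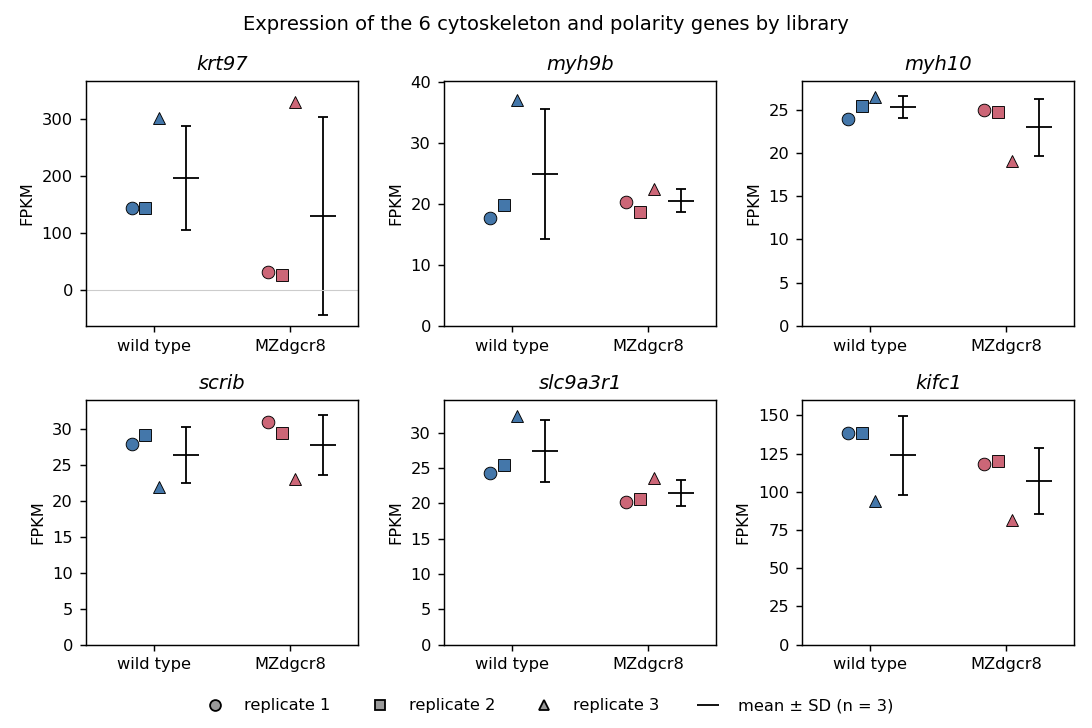
Level of each gene in FPKM (vertical axis, from 0 for all genes but krt97, whose SD bar runs below 0) in wild-type and MZdgcr8 libraries, with a symbol for each replicate number and the mean ± SD (n = 3) in black. Replicate 3 is the highest library for krt97, myh9b and slc9a3r1 and the lowest for scrib and kifc1 in both genotypes.

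Comparing MZdgcr8 with wild type asks which of these messengers differ in level when the embryo reaches epiboly without Dgcr8. Over all 6 libraries no member passed the edgeR quasi-likelihood test (adjusted p from 0.898 to 0.917), where 0 of the 67 tested genes passed (0% of the background). At an unadjusted p under 0.05 the test had 0 members and 5 genes in all, and DESeq2 and limma also called 0 genes. For krt97 DESeq2 gave no p without the block, so it was not tested there. With the replicate number as a block, edgeR called 0 members and 5 of 67 genes (7.46%), and DESeq2 called 11 of 67 genes (16.4%), krt97 alone among the members. The median log2 change of the 6 genes was -0.25 without the block, beside -0.16 over all tested genes. With the block in edgeR these medians were -0.21 and -0.19, and in replicates 1 and 2 alone they were -0.10 and -0.15. In replicates 1 and 2 alone, 3 members were called lower and 0 higher, where 43 of 67 genes (64.2%) were called and 27 of 67 (40.3%) were called lower. With TMM, a scaling by a trimmed mean over genes, 4 members were called in these libraries, 2 higher and 2 lower, and the split over all genes went from 16 higher and 27 lower to 21 and 20.

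The keratin krt97 was the member with the widest range, from 26.9 to 331 FPKM. Wild-type replicates 1, 2 and 3 had 145, 144 and 302 FPKM, and MZdgcr8 replicates 1, 2 and 3 had 31.1, 26.9 and 331 FPKM. Replicates 1 and 2 of MZdgcr8 were the lowest of the 6 libraries and replicate 3 of MZdgcr8 the highest, so the groups overlapped. Within replicate numbers 1 and 2 krt97 was 78.5% and 81.3% lower in MZdgcr8, and within number 3 it was 9.74% higher. The edgeR estimate over 6 libraries was log2 -0.60 ± 0.99 (SE, adjusted p = 0.898), and with the replicate block it was log2 -1.54 ± 0.61 (adjusted p = 0.15). The blocked estimate was called by DESeq2 (adjusted p = 0.0071), which gave krt97 no p without the block. With a term for replicate 3 in place of the block krt97 was not called by edgeR (adjusted p = 0.0946). In replicates 1 and 2 alone krt97 fell by 2.31 ± 0.09 on the log2 scale (adjusted p = 1.08e-05 in edgeR). That fit called 43 of 67 genes (64.2%), and its libraries were chosen with replicate 3 known to stand apart. Without the block the call depended on 1 library: leaving out MZdgcr8 replicate 3 alone gave log2 -2.76 with an adjusted p of 0.049 in edgeR. In that fit 3 of 67 genes (4.48%) were called. Leaving out any other library gave no call, and the estimate then ran from log2 -0.78 to -0.12. Replicate 3 was 2.09-fold the mean of replicates 1 and 2 in wild type and 11.4-fold in MZdgcr8. Keratins have close relatives, and how reads shared between them were assigned is not known from the sources used here.

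The myosin II heavy chains are motors of the same class. In mammals MYH9 and MYH10 encode the heavy chains of myosin IIA and IIB, which differ in how fast they cycle on actin and how long they stay bound to it. For myh9b, wild-type replicates 1, 2 and 3 had 17.7, 19.9 and 37.1 FPKM, and MZdgcr8 replicates 1, 2 and 3 had 20.3, 18.8 and 22.5 FPKM. The wild-type replicate 3 library stood alone at the top, and the other 5 lay within 17.7 to 22.5 FPKM with the genotypes mixed. For myh10 the wild-type libraries had 23.9, 25.5 and 26.5 FPKM and the MZdgcr8 libraries 25.0, 24.8 and 19.1 FPKM. Here MZdgcr8 replicate 3 stood alone at the bottom, and the genotypes were again mixed over the other 5 libraries. The edgeR changes over 6 libraries were log2 -0.28 ± 0.35 (SE, adjusted p = 0.898) for myh9b and log2 -0.14 ± 0.21 (adjusted p = 0.898) for myh10. In replicates 1 and 2 alone the estimates were log2 0.06 ± 0.09 for myh9b and 0.01 ± 0.06 for myh10, with no call for either. Scaling these 4 libraries by TMM gave 0.17 ± 0.06 for myh9b (adjusted p = 0.0952) and 0.12 ± 0.03 for myh10 (adjusted p = 0.0479). With that scaling 41 of 67 genes (61.2%) were called, and the median over all tested genes moved from -0.15 to -0.05. The call of myh10 was thus made only after the scaling.

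The ratio of myh10 to myh9b in FPKM sets the paralogs against each other within a library, so it does not depend on library depth. Wild-type replicates 1, 2 and 3 had ratios of 1.35, 1.28 and 0.713, and the MZdgcr8 libraries, in the same order, had 1.23, 1.32 and 0.849. In 4 of 6 libraries myh10 was the more abundant transcript, and in both replicate 3 libraries myh9b was. The mean log2 ratio was 0.10 ± 0.51 (SD, n = 3) in wild type and 0.15 ± 0.34 (SD, n = 3) in MZdgcr8. The difference of 0.05 ± 0.35 (SE) was smaller than the spread between libraries (exact permutation test over libraries, two-sided, p = 0.9, where 0.1 is the smallest p that 3 against 3 allows). Within replicate numbers 1, 2 and 3 the MZdgcr8 log2 ratio minus the wild-type one was -0.14, 0.04 and 0.25, so the pairs did not share a sign. Counts, unlike FPKM, grow with transcript length: at the same FPKM and depth myh10 had 5.14 times and myh9b 3.64 times the counts of krt97. The ratio of counts of myh10 to myh9b was above 1 in all 6 libraries, from 1.01 to 1.90.

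Summed over the pair, heavy chain transcript came to 41.6, 45.3 and 63.6 FPKM in the wild-type libraries, against 45.3, 43.5 and 41.6 FPKM for MZdgcr8. The 5 libraries other than wild-type replicate 3 lay within 41.6 to 45.3 FPKM. The lower ratio came about differently in the replicate 3 libraries of the genotypes. With a single such library in each genotype, a genotype difference cannot be told from spread between libraries. In wild type myh9b was 1.98-fold the mean of replicates 1 and 2 and myh10 was 1.07-fold. In MZdgcr8 myh9b was 1.15-fold and myh10 was 23.2% lower. The sum did not differ between genotypes beyond the spread (exact permutation test on the log2 sum, two-sided, p = 0.4). Each heavy chain gene has 2 annotated transcripts in the table, and reads shared with other myosin genes may be divided between them.

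**Figure D2:**
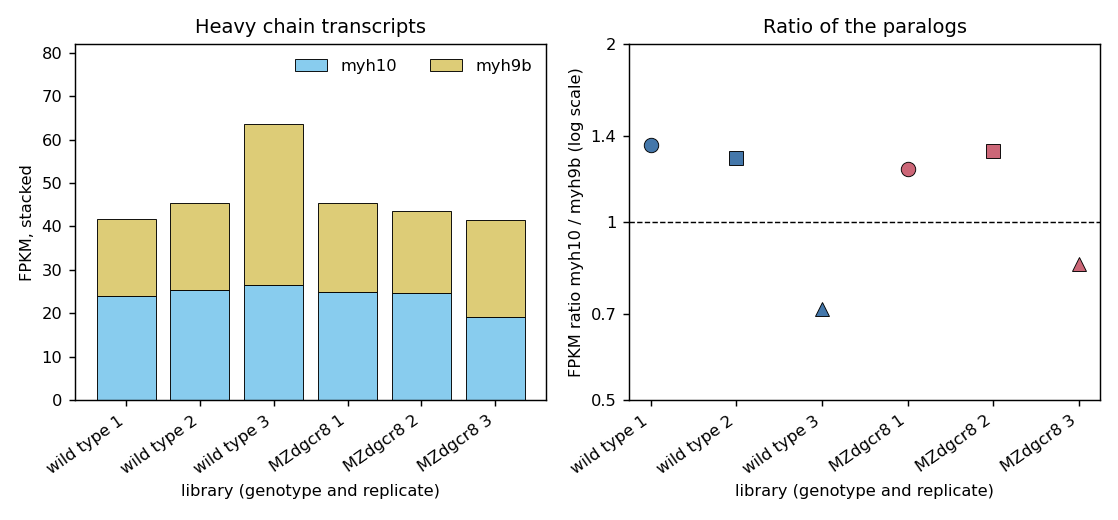
Left, FPKM of myh10 and myh9b stacked for each of the 6 libraries; right, their ratio on a log2 axis, with the dashed line at equal levels, circles, squares and triangles for replicates 1, 2 and 3, wild type in blue and MZdgcr8 in red. The ratio is 1.23 to 1.35 in replicates 1 and 2 of both genotypes and 0.713 and 0.849 in replicate 3.

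The polarity gene scrib was nearly level between the genotypes. Wild-type replicates 1, 2 and 3 had 28.0, 29.3 and 21.9 FPKM, and MZdgcr8 replicates 1, 2 and 3 had 31.0, 29.5 and 23.2 FPKM. The groups overlapped, and replicate 3 was the lowest library in each, 23.3% below the mean of replicates 1 and 2 in wild type and 23.4% below it in MZdgcr8. The edgeR change was log2 0.08 ± 0.21 (SE, adjusted p = 0.917) over 6 libraries and 0.08 ± 0.05 (adjusted p = 0.193) in replicates 1 and 2. With TMM scaling of replicates 1 and 2 it was 0.19 ± 0.04 and was called (adjusted p = 0.0219), where 41 of 67 genes (61.2%) were. The medians over all tested genes were -0.16, -0.15 and -0.05 in these fits, in the same order, so scrib lay above the median in each. In zebrafish scrib has 9 annotated transcripts in the table, and the deposited gene values do not separate them.

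The scaffold gene slc9a3r1 encodes NHERF1, which ties membrane transporters and receptors through ezrin to cortical actin. Levels of 24.3, 25.5 and 32.4 FPKM were found in wild-type replicates 1, 2 and 3, and MZdgcr8 replicates 1, 2 and 3 had 20.2, 20.6 and 23.6 FPKM. All 3 MZdgcr8 values lay below all 3 wild-type values, which held for no other member. Groups that do not overlap were found for 12 of 67 tested genes (17.9%), 6 of them lower in MZdgcr8 (8.96%). Within replicate numbers 1, 2 and 3 the level was 16.6%, 19.0% and 27.1% lower in MZdgcr8. The edgeR change was log2 -0.35 ± 0.30 (SE, adjusted p = 0.898) over 6 libraries and -0.34 ± 0.11 with the replicate block (adjusted p = 0.124), with no call. In replicates 1 and 2 alone slc9a3r1 fell by 0.28 ± 0.08 on the log2 scale (adjusted p = 0.0202), and with TMM it fell by 0.18 ± 0.05 (adjusted p = 0.0443). The medians over all tested genes were -0.15 and -0.05 in these fits, which called 43 (64.2%) and 41 (61.2%) of 67 genes. When a term for replicate 3 was added to the fit of 6 libraries, slc9a3r1 fell by 0.34 ± 0.08 (adjusted p = 0.0353) and kifc1 by 0.21 ± 0.05 (adjusted p = 0.0379). In that fit 26 of 67 genes (38.8%) were called and 15 (22.4%) were called lower. The median log2 change over all tested genes was -0.18 there, close to the kifc1 estimate, and this fit was not run with TMM.

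The kinesin kifc1 belongs to the minus-end-directed kinesin-14 family, and mammalian KIFC1 bundles spindle microtubules and helps hold extra centrosomes together. Wild-type replicates 1, 2 and 3 had 138, 139 and 94.2 FPKM, and MZdgcr8 replicates 1, 2 and 3 had 118, 120 and 81.8 FPKM. Over the 6 libraries the groups overlapped, because wild-type replicate 3 lay below MZdgcr8 replicates 1 and 2. Within replicate numbers 1, 2 and 3 kifc1 was 14.5%, 13.4% and 13.2% lower in MZdgcr8, the narrowest range of the 6 genes. Of the 67 tested genes, 29 (43.3%) were also lower in 3 of 3 pairs, and kifc1 and slc9a3r1 were the 2 members among them. The edgeR change was log2 -0.21 ± 0.24 (SE, adjusted p = 0.898) over 6 libraries and -0.21 ± 0.08 with the replicate block (adjusted p = 0.15). Medians over all tested genes were -0.16 and -0.19 in these fits. In replicates 1 and 2 alone kifc1 fell by 0.22 ± 0.04 on the log2 scale (adjusted p = 0.00269), beside a median of -0.15 over all tested genes. TMM scaling moved that median to -0.05 and the kifc1 estimate to -0.11 ± 0.04, with no call (adjusted p = 0.0935). Replicate 3 was 32.0% below the mean of replicates 1 and 2 in wild type and 31.4% below it in MZdgcr8.

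**Figure D3:**
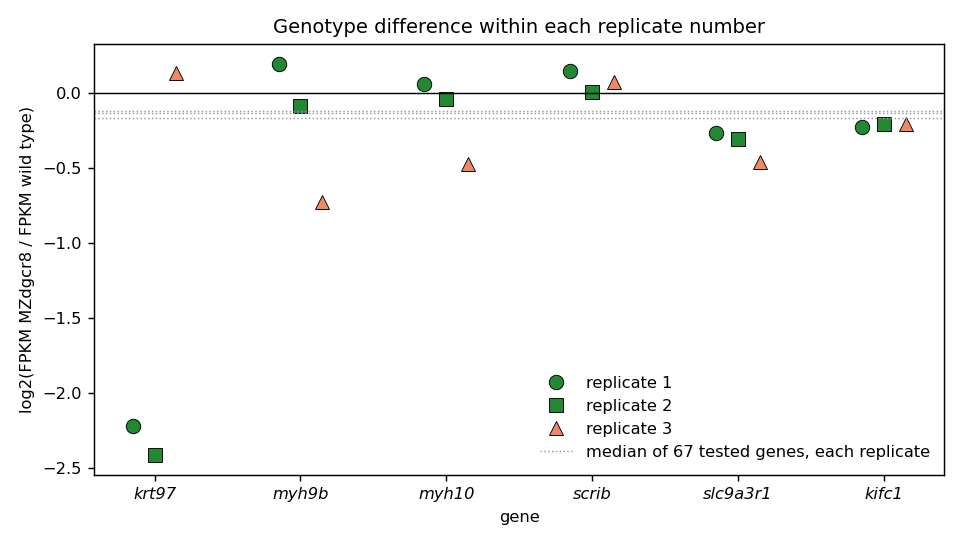
Log2 of MZdgcr8 over wild-type FPKM (vertical axis) for each gene within replicate numbers 1, 2 and 3, with dotted lines at the median of the 67 tested genes in each replicate number. The points for kifc1 lie together at -0.20 to -0.23, those for slc9a3r1 are all below 0, and for krt97 replicates 1 and 2 (-2.22 and -2.42) lie far from replicate 3 (0.13).

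**Figure D4:**
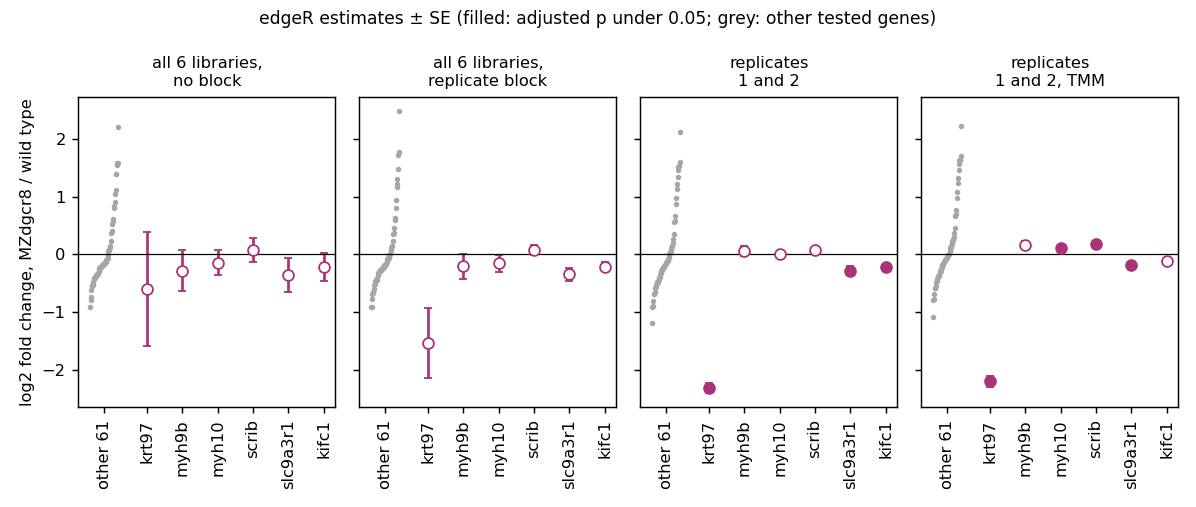
edgeR log2 fold change of MZdgcr8 over wild type ± SE for the 6 genes in 4 fits, with filled points where the adjusted p is under 0.05 and the other 61 tested genes in grey. No member is filled over 6 libraries, where 0 of 67 tested genes were called without the block and 5 (7.46%) with it. In replicates 1 and 2, 3 are filled, where 43 of 67 genes (64.2%) were called. With TMM 4 are filled, 2 of them higher (myh10 and scrib) and 2 lower (krt97 and slc9a3r1), where 41 of 67 genes (61.2%) were called.

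Whether the genotype difference changed between replicate 3 and replicates 1 and 2 was tested as an interaction in edgeR, which 28 of 67 genes (41.8%) passed. With a single replicate 3 library in each genotype, the error comes from replicates 1 and 2, and the set was chosen because replicate 3 was known to stand apart. The members that passed were krt97 (log2 2.45 ± 0.13 SE, adjusted p = 6.34e-05), myh9b (log2 -0.78 ± 0.14, adjusted p = 0.00634) and myh10 (log2 -0.48 ± 0.09, adjusted p = 0.00829). For scrib the interaction was -0.00 ± 0.09 (adjusted p = 0.987), for kifc1 0.01 ± 0.07 (adjusted p = 0.891) and for slc9a3r1 -0.17 ± 0.13 (adjusted p = 0.278). These last estimates did not pass, which does not show that the differences were equal.

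The libraries fall into replicates 1 and 2 on one side and replicate 3 on the other. Likeness between genes over 6 libraries can follow that split or a single library, and is given as a description. By Pearson correlation of log2(FPKM + 1), krt97 was most like gpm6bb (0.957) and arl14ep (0.945), and kifc1 was most like scfd1 (0.997). The pattern of scrib was closest to those of the endocytic scaffold gene itsn1 (0.983) and mier1b (0.981). That of myh10 was closest to snx9a (0.923) and dstyk (0.872), and that of myh9b to echs1 (0.907). MZdgcr8 replicate 3 was the lowest library of both myh10 and snx9a, and wild-type replicate 3 the highest of both myh9b and echs1. The scaffold gene slc9a3r1 was most like gpm6bb (0.859) and puf60b (0.833). The range of krt97 was not shared by its nearest gene, since gpm6bb stayed within 7.14 to 9.85 FPKM.

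Few other genes of these pathways are in the table. Of 38 keratin and enveloping layer genes listed, 1 is there, krt97. Of 48 actomyosin genes 2 are there, myh9b and myh10, and of 47 polarity and junction genes 2, scrib and slc9a3r1. Of 39 genes listed under motors and the spindle 2 are there, kifc1 and dzip1. The latter was listed there although it is a gene of the ciliary base, known from the zebrafish iguana mutant. Wild-type replicates 1, 2 and 3 had 5.81, 4.88 and 12.28 FPKM of dzip1, and MZdgcr8 replicates 1, 2 and 3 had 3.45, 3.20 and 10.8 FPKM. Like krt97, dzip1 was highest in replicate 3 of both genotypes, but unlike krt97 it was lower in MZdgcr8 in 3 of 3 pairs. In edgeR dzip1 had log2 -0.40 ± 0.63 (SE, adjusted p = 0.898) over 6 libraries and fell by 0.68 ± 0.12 in replicates 1 and 2 (adjusted p = 0.00276). It was also called there with TMM (adjusted p = 0.03) and over 6 libraries with a term for replicate 3 (adjusted p = 0.0478). The fits that called it called 43 (64.2%), 41 (61.2%) and 26 (38.8%) of 67 genes, in that order. With the replicate block dzip1 was not called (adjusted p = 0.124). No gene of these lists passed the edgeR test of genotype alone over 6 libraries, and with 1 or 2 genes each the lists are not described as groups.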

How the data were processed

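RNA of 50 pooled embryos per library was sequenced on an Illumina platform, per the labels' protocols. The authors deposited FPKM values and counts for each gene and library, per the file headers. The submitters' processing notes name Bowtie 0.12.2, StringTie 1.3.0 and HISAT2 2.0 but no roles; the only build given is a mouse one, so no coordinates are printed. Identifiers of 99 of 99 genes matched a table of gene names. No label says that replicates came from separate clutches, so a p-value reflects the spread among these 6 libraries alone, some or all of it possibly technical.

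Relative depth was taken from the ratio of count to FPKM over the 58 genes that exceeded 200 counts in all libraries (largest deviation 0.0048, log2) and used as library size. Within that deviation the ratio was the same in every library, so isoforms are not resolved. No count was 1, 2 or 3, so a count may not be 1 read and no counting intervals are given. The comparison of genotypes was fitted with edgeR 4.0.16 (R 4.3.3) on genes whose mean reached 1 FPKM, two-sided, Benjamini-Hochberg over 67 genes, threshold 0.05; SEs were derived from each gene's F statistic. DESeq2 1.42.0 and limma 3.58.1 on log2(FPKM + 1) were alternatives.

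Same-numbered libraries deviated together from their group means (r over genes 0.77, 0.76 and 0.80 for numbers 1, 2 and 3). So did wild type replicate 2 with MZdgcr8 replicate 1 (0.82) and wild type replicate 1 with MZdgcr8 replicate 2 (0.71). Because replicate 3 stands apart in both genotypes, these values cannot tell which libraries of replicates 1 and 2 belong together. The numbers were still taken to pair the libraries, a pairing that no label states. Replicates 1 and 2 do not hold identical counts and are listed as separate samples in the labels, so they were kept apart; whether they are independent cannot be told from the files. The members, the gene lists and the fits without replicate 3 were chosen with earlier results of these data known. Named genes are the 6 members, listed genes in the table, and for each member the 2 tested genes most like it, leaving out a second gene for myh9b and kifc1 that has a shared or placeholder name.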

Additional observations from a re-analysis of the deposited data

Results flagged for a closer look

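For 3 of the 6 genes an interaction term in edgeR between genotype and replicate 3 passed the threshold. Replicate 3 has a single library in each genotype, the error comes from replicates 1 and 2 only, and the split was made because replicate 3 was known to stand apart, so a changed difference and a larger spread between libraries cannot be told apart. The interaction was log2 2.45 for krt97, -0.78 for myh9b and -0.48 for myh10, and with TMM scaling, added after the data were seen, it was 2.28, -0.95 and -0.65. The interaction passed for 28 of 67 genes (41.8%), and for 36 of 67 with TMM, so passing was not particular to these genes. Within replicate 3, myh9b was 39.4% and myh10 27.9% lower in MZdgcr8, while within replicates 1 and 2 their differences ran from 5.53% lower to 14.7% higher.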

How the results depend on the processing

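Without the block edgeR called 0 of 67 genes and 0 members. RLE scaling gave 2 genes, the replicate block 5, the block with TMM 4, DESeq2 with the block 11, replicate set as a term 26, replicates 1 and 2 alone 43 and those with TMM 41; leaving out 1 library gave 0 to 3. Members called were 1 with DESeq2 and the block, 2 with replicate set as a term (slc9a3r1 and kifc1, both lower), 3 in replicates 1 and 2 and 4 there with TMM, and 0 to 1 when 1 library was left out. The replicate block changed no call of a member in edgeR. Of 126 estimates for single members under alternatives, 109 kept direction and the lack of a call, 10 kept direction and gained a call, and 7 changed sign. These 7 were myh9b without wild type replicate 3 (0.13), in replicates 1 and 2 (0.057) and there with TMM (0.17), myh10 in replicates 1 and 2 (0.010) and there with TMM (0.12), and scrib without wild type replicate 3 (-0.038) or MZdgcr8 replicate 1 (-0.0046). Of these 7, myh10 in replicates 1 and 2 with TMM was also called by edgeR (adjusted p = 0.0479), higher in MZdgcr8. The genotype difference in the log2 ratio of myh10 to myh9b, 0.05 over 6 libraries and 0.05 within pairs (replicate block, exact sign-flip p = 0.75, where 0.25 is the smallest possible), was -0.047 in replicates 1 and 2, -0.24 without wild type replicate 3, -0.02 without MZdgcr8 replicate 1 and -0.07 without MZdgcr8 replicate 2, within a range of -0.24 to 0.25 when 1 library was left out; the cause was not tested. Leaving out 1 library gave log2 changes of -2.76 to -0.12 for krt97, -0.47 to 0.13 for myh9b, -0.21 to -0.02 for myh10, -0.04 to 0.20 for scrib, -0.43 to -0.21 for slc9a3r1 and -0.38 to -0.05 for kifc1. DESeq2 without the block gave no p for krt97, which is counted among the 109.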
